A study of Mus musculus with 4 samples.

Results

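Vascular genes were compared between tagged-ribosome RNA and RNA of the whole prefrontal cortex of adult mice. The members were 25 genes of endothelial cells, which line the blood vessels, and 11 genes of mural cells, the pericytes and smooth muscle cells that wrap them, 36 of the 24100 genes in the deposited tables. They were taken by symbol from a list of names, and all 36 were found. The method was translating ribosome affinity purification (TRAP): tissue was homogenized, polysomes carrying EGFP were pulled down with bead-bound antibodies, and their RNA was sequenced as an immunopurified (IP) library. All libraries came from untreated adult males of the Crh-IRES-Cre line, whose Cre recombinase is expressed from Crh, the corticotropin-releasing hormone gene. There was 1 Input library and there were 3 IP libraries, each from a pool of 5 males. Not given in the sources used here are the allele that carried EGFP, the strain background, the age in weeks, and whether the IP pools were separate animals. The p-values therefore measure the spread between these libraries, which may be technical in part.

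Brain endothelial cells are joined by tight junctions and carry transporters that move glucose, amino acids, lipids and drugs between blood and brain, which together form the blood-brain barrier. They grow and survive on vascular endothelial growth factor and angiopoietin signals, and their identity depends on transcription factors of the ETS and SOX families. Pericytes lie on capillaries within the same basement membrane and respond to platelet-derived growth factor made by the endothelium, while smooth muscle cells of arterioles contract through actin and smooth muscle myosin. None of these cells is a neuron, so in TRAP of a neuronal population their more specific transcripts serve as markers of another cell type. Some members, such as Slc2a1 and Slc7a5, are also made by other brain cells.

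The Input held 14474529 counts, and the IP libraries 10031072 to 23548375. Levels are CPM, counts scaled to a common library size with TMM factors, which assume most genes do not differ, and a single count was worth 0.0436 to 0.107 CPM. As a check of the labels, Crh had 1.32 CPM in the Input against 501, 174 and 193 CPM in IP 1, 2 and 3. Of 14636 genes tested, 67 (0.458%) were called between IP and Input at an adjusted p under 0.05 (edgeR's quasi-likelihood test, Benjamini-Hochberg adjustment), 60 higher (0.41%) and 7 lower (0.0478%) in IP. With library totals alone in place of TMM, the split was 50 higher and 15 lower.

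Flt1 and Slco1a4 were among the 17 members above the Input in all 3 IP libraries, and Myl9 was among the 4 below it. The upstream sequences of these 3 are shown as examples that hold a marked site. A link between sequence and direction was not tested for these upstream sequences. Each is taken from the 250 bases before the RefSeq transcription start in GRCm38.p6, read 5′ to 3′ on the gene's strand, and for Myl9 the stretch stops where a longer GENCODE transcript begins. In Flt1 (chr5:147726012-147726261, minus strand) and Slco1a4 (chr6:141856221-141856470, minus strand) the capitals mark AGGAAG or its reverse complement CTTCCT, a core to which ETS factors such as the members Ets1 and Erg can bind. In Myl9 (chr2:156775214-156775419, plus strand) the capitals mark a CArG box, the site of serum response factor in many contractile genes.
Flt1: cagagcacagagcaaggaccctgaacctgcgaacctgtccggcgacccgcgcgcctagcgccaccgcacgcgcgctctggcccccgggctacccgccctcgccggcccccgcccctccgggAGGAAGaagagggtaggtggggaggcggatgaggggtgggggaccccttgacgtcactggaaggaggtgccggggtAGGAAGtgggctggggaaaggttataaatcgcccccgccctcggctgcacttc
Slco1a4: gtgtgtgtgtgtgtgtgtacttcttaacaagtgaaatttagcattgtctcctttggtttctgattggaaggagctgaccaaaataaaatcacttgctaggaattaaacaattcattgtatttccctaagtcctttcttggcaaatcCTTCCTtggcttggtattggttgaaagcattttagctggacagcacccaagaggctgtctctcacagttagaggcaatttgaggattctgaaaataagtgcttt
Myl9: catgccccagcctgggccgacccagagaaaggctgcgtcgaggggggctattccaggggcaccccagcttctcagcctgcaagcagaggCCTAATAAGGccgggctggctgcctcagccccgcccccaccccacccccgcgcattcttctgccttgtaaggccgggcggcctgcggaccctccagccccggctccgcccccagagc
The AGGAAG core, searched on both strands, stood in 29.5% of 32851 promoter windows of this length and at 32.3% of 27025 genes in 1 window or more. Among members with a promoter in the RefSeq table it was found for 13 of 18 endothelial genes and 1 of 7 mural genes, the latter Atp13a5. The CArG box stood in 1.47% of windows, and among members at Myl9 and at the endothelial gene Lef1. In Flt1 the matches ended 124 and 48 bases before the start, in Slco1a4 99 bases and in Myl9 152 bases before it. A match describes letters in a window and not a bound factor.

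Of the 25 endothelial genes, 12 were above the Input in all 3 IP libraries, 2 were below it in all 3, and 11 had IP libraries on both sides, against 19.7% and 24.1% of all tested genes above and below in all 3. All 25 were tested and edgeR called 0. At an unadjusted p under 0.05 there were 4, each higher in IP, where 3.2% of all tested genes were higher and 1.23% lower. DESeq2 called 2, Flt1 and Slc2a1, and limma-voom 0. The median fitted log2 fold was 1.93, from -1.495 for Esam to 4.47 for Sox17, beside a median of 0.083 over all tested genes. Without IP 2 the endothelial median was 1.12. The same 2 genes were called without IP 1 and without IP 3. Because bulk libraries were compared, the cells that the RNA of these genes came from cannot be told from the counts.

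**Figure D1:**
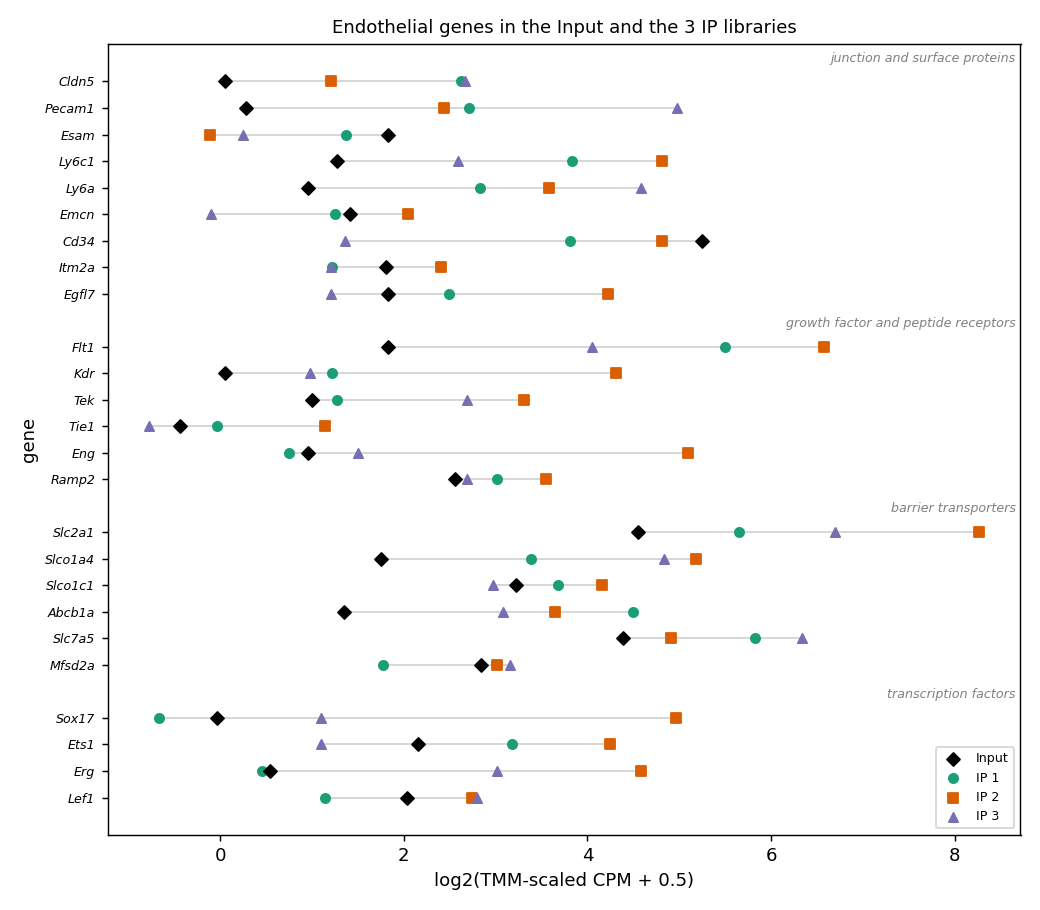
Level of each endothelial gene as log2(TMM-scaled CPM + 0.5) in the Input (black diamonds), IP 1 (circles), IP 2 (squares) and IP 3 (triangles), by role of the gene. IP 2 was the highest of the IP libraries for 17 of the 25 genes, and Cd34 and Esam are the genes whose Input lies to the right of every IP library.

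Among the receptors of vascular growth factors, Flt1, which encodes VEGF receptor 1, stood highest over its Input. Flt1 (Entrez 14254, chromosome 5, 147561604 to 147726011 in GRCm38, protein coding) had an Input level of 3.06 CPM, and IP 1, 2 and 3 stood at 44.7, 94.8 and 16.04 CPM. Every IP library lay above the Input, and the highest was 5.91 times the lowest. Its log2 fold was 4.08 ± 1.16 (SE), with an unadjusted p of 0.00238 and an adjusted p of 0.261 by edgeR. With DESeq2 its adjusted p was 0.000885 and its log2 fold 4.09. Without a low-count filter edgeR gave an adjusted p of 0.0495, whereas limma-voom gave 0.881. Leaving out IP 2 gave a log2 fold of 3.31 with an edgeR adjusted p of 0.449, and leaving out IP 1 or IP 3 gave adjusted p-values of 0.0225 and 0.0109.

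Kdr, the gene of VEGF receptor 2, had 9 counts in the Input, which is 0.540 CPM with a 95% Poisson interval of 0.247 to 1.02 CPM (counting error only). Its IP levels were 1.83, 19.4 and 1.47 CPM. Most of its signal was thus in IP 2, and the log2 fold of 3.78 ± 2.28 had an adjusted p near 1. Eng, which encodes the TGF-beta co-receptor endoglin, had the same shape, with 1.44 CPM for the Input against 1.18, 33.6 and 2.33 CPM for IP 1, 2 and 3. Without IP 2 the log2 fold of Eng was 0.28 and that of Kdr 1.60. Tek, the angiopoietin receptor TIE2, had 1.499 CPM against 1.92, 9.41 and 5.95 CPM. Its partner Tie1 stayed low, with 4 counts in the Input and 11, 16 and 1 counts in the IP libraries. Ramp2, which pairs with the calcitonin receptor-like receptor to bind adrenomedullin, was the most even endothelial gene, with an Input of 5.40 CPM against IP levels of 7.58, 11.2 and 5.95 CPM. Exons of Ramp2 overlap Vps25 over 33.4% of their bases on the same strand, so the counts may hold reads of that gene. In all 6 genes of this group IP 2 was the highest IP library.

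By mean IP level the barrier transporters held the most abundant endothelial genes, whereas in the Input it was the surface gene Cd34 at 37.5 CPM. Slc2a1 (Entrez 20525, chromosome 4, 119108711 to 119137983, protein coding), which encodes the glucose transporter GLUT1 and is also made in glia, had an Input level of 22.8 CPM, with 49.9, 307 and 103 CPM in IP 1, 2 and 3. The IP libraries did not overlap the Input but differed 6.15-fold among themselves. Its log2 fold was 2.75 ± 0.83 (SE, unadjusted p = 0.00385, adjusted p = 0.341 by edgeR), and DESeq2 gave an adjusted p of 0.0464. Without IP 1 the edgeR adjusted p was 1.78e-05 and without IP 3 it was 0.00756, but without IP 2 it was 0.939 at a log2 fold of 1.74. Slc2a1 made up 16.5% of the summed CPM of the endothelial genes in the Input and 40.4% in IP 2.

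Slco1a4, an organic anion transporter of the brain endothelium, had 2.88 CPM in the Input against 9.94, 35.8 and 28.1 CPM. All 3 IP libraries were at least 3 times the Input (log2 fold 3.09 ± 1.28, unadjusted p = 0.0259, adjusted p = 0.903 by edgeR). Abcb1a, which encodes the drug efflux pump P-glycoprotein, had 2.04 CPM against 22.1, 11.98 and 7.93 CPM, one of 2 endothelial genes that were highest in IP 1. Reads of Abcb1a and its close paralog Abcb1b may not be fully separated in these counts. Slc7a5, the light chain of the amino acid transporter LAT1, which neurons also use, had 20.4 CPM against 56.2, 29.6 and 80.1 CPM. The order of the IP libraries thus differed from gene to gene within the transporters. Slco1c1, a carrier of thyroid hormone also found in astrocytes, had an Input of 8.81 CPM and an IP range of 7.33 to 17.3 CPM. Mfsd2a, the lipid transporter that holds transcytosis low at the barrier, had an Input of 6.66 CPM and an IP range of 2.92 to 8.45 CPM. For both, the Input lay within the range of the IP libraries.

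Junction and surface genes were split. Cldn5 (Entrez 12741, chromosome 16, 18776847 to 18778262, protein coding), the main claudin of brain endothelial tight junctions, also had 9 counts in the Input (0.540 CPM) and reached 5.67, 1.82 and 5.86 CPM in IP 1, 2 and 3 (log2 fold 3.03 ± 2.36). Pecam1, the adhesion molecule CD31, had 0.720 CPM against 6.06, 4.92 and 30.9 CPM (log2 fold 4.26 ± 1.83, unadjusted p = 0.0308, adjusted p = 0.958 by edgeR). Both had every IP library above the Input, and the log2 fold of Pecam1, which was highest in IP 3, was 2.92 without that library. Ly6c1 had an Input of 1.92 CPM and an IP range of 5.52 to 27.6 CPM, and Ly6a, also called Sca-1, 1.44 CPM and 6.63 to 23.5 CPM. These 2 surface proteins belong to a family of related genes, so reads may have been shared with similar members of it.

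The other 5 genes of the group had Input levels within or above the IP range. Cd34, a sialomucin of endothelium and of progenitor cells, had the highest Input level of the 9, 37.5 CPM, and stood at 13.5, 27.6 and 2.07 CPM in the IP libraries (log2 fold -1.38 ± 1.07). Esam, an adhesion molecule at tight junctions, had 3.06 CPM against 2.09, 0.428 and 0.690 CPM (log2 fold -1.495 ± 2.35). These 2 were the endothelial genes with all IP libraries below the Input. Emcn, the sialoglycoprotein endomucin, ran from 0.431 to 3.64 CPM in IP around an Input of 2.16 CPM, and Itm2a from 1.81 to 4.81 CPM around 2.998 CPM. Egfl7, a secreted protein of the vessel wall, had 3.06 CPM against 5.14, 18.2 and 1.81 CPM, and other genes overlap 11.2% of its exon bases.

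All 4 transcription factor genes had IP libraries on both sides of the Input. Sox17 (Entrez 20671, chromosome 1, 4490931 to 4497354, protein coding), a factor of arterial endothelium, had 8 counts in the Input (0.480 CPM). In IP 1, 2 and 3 it had 3, 288 and 19 counts, which were 0.131, 30.8 and 1.64 CPM. Its log2 fold of 4.47 ± 2.50 was the highest of the members, yet it was 0.85 without IP 2. Another gene model lies opposite 16.9% of the exon bases of Sox17. Erg, the ETS factor that maintains endothelial identity, had 0.959 CPM against 0.872, 23.4 and 7.59 CPM. Ets1, also made in lymphocytes, had 3.96 CPM against 8.54, 18.5 and 1.64 CPM. Lef1, the effector of Wnt signalling that the barrier depends on, had 3.60 CPM against 1.70, 6.20 and 6.47 CPM. IP 2 was the highest IP library for the first 3 of these genes, and it was above the Input for all 4.

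Of the 11 mural genes, 5 were above the Input in all 3 IP libraries, 2 below in all 3 and 4 on both sides. One of the 2 below was Cnn1, with at most 3 counts in any library. Of the 9 mural genes tested, 5 were above and 1 below in all 3, beside 19.7% above and 24.1% below among all tested genes. Of the 6 pericyte-associated genes 4 were above in all 3 and 0 below, and of the 5 contractile genes 1 was above and 2 were below. The difference between these roles was not tested. The filter on low counts left 9 of the 11 mural genes, without Higd1b and Cnn1. EdgeR, DESeq2 and limma-voom called 0 of the 9, and 1, Rgs5, was higher at an unadjusted p under 0.05 by edgeR. The median log2 fold of the 9 was 1.66, but 1.01 without IP 2 and 0.58 when all 11 were fitted without the filter.

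**Figure D2:**
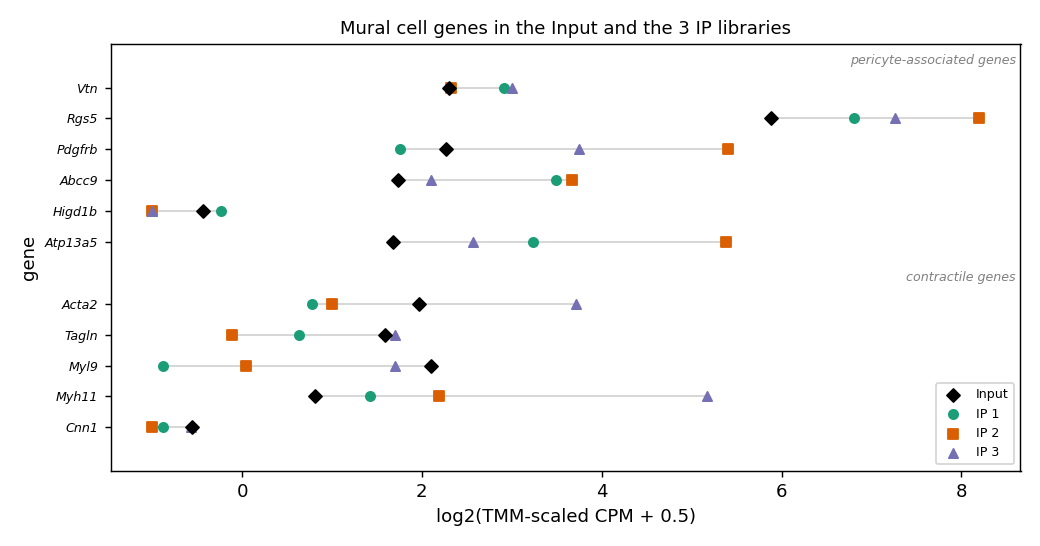
Level of each mural cell gene as log2(TMM-scaled CPM + 0.5) in the Input (black diamonds), IP 1 (circles), IP 2 (squares) and IP 3 (triangles). For 4 of the 6 pericyte-associated genes every IP library lies to the right of the Input, and for the contractile genes IP 3 is the highest of the IP libraries in 5 of 5. One of these 5 is Cnn1, with 1, 0 and 2 counts in IP 1, 2 and 3, too few to compare.

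Rgs5, a regulator of G-protein signalling and the most abundant pericyte-associated gene here, carried most of the mural signal. Rgs5 (Entrez 19737, chromosome 1, 169655501 to 169695813, protein coding) had an Input level of 58.3 CPM, with 111, 293 and 153 CPM in IP 1, 2 and 3. The IP libraries stood apart from the Input and within 2.63-fold of each other. Its log2 fold was 1.67 ± 0.60 (SE), with an unadjusted p of 0.0116 and an adjusted p of 0.643 by edgeR. Without IP 1 the edgeR adjusted p was 0.0178 at a log2 fold of 1.91, without IP 2 it was 0.9998 at 1.18, and without IP 3 it was 0.366 at 1.79. Rgs5 made up 64.6% to 76.4% of the summed mural CPM in each library.

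Atp13a5, a transporter ATPase used as a marker of brain pericytes, had 2.70 CPM in the Input against 8.94, 41.2 and 5.43 CPM. Abcc9, the sulfonylurea receptor subunit of the pericyte potassium channel, had 2.82 CPM against 10.7, 12.2 and 3.79 CPM. Both lay above the Input in every IP library, with adjusted p-values near 1. Pdgfrb, the receptor through which pericytes are recruited, had 4.32 CPM against 2.88, 41.8 and 12.9 CPM, so IP 1 was below the Input. Vtn, the matrix protein vitronectin, was the most even member, with 4.44 CPM against 7.02, 4.49 and 7.50 CPM and an SD of 25.5% of its IP mean. Higd1b had 4 counts in the Input, 8 in IP 1, and 0 in IP 2 and IP 3, where a count of 0 allows up to 0.321 and 0.259 CPM. Its level could not be told from the Input at this depth.

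Among the contractile genes, Myh11 (Entrez 17880, chromosome 16, 14194535 to 14291372, protein coding), the heavy chain of smooth muscle myosin, had 1.26 CPM in the Input against 2.18, 4.06 and 35.6 CPM in IP 1, 2 and 3 (log2 fold 3.46 ± 1.86). It was the only one of the 5 with every IP library above the Input, and without IP 3 its log2 fold was 1.30. Acta2, smooth muscle actin, had 3.42 CPM against 1.22, 1.497 and 12.6 CPM, and its log2 fold turned from 0.58 to -1.33 without IP 3. Myl9, the regulatory light chain whose upstream sequence is shown above, had 3.78 CPM against 0.0436, 0.535 and 2.76 CPM, below the Input throughout (log2 fold -1.76 ± 2.37). Tagln, the actin-binding protein transgelin, had 2.52 CPM against 1.05, 0.428 and 2.76 CPM, but opposite-strand genes overlap 67.9% of its exon bases, and whether strand was used in counting is unknown. Cnn1, calponin, had 3 counts in the Input and 1, 0 and 2 counts in IP, too few to compare.

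Summed over the 5 contractile genes, the Input level was 11.2 CPM, and IP 1, 2 and 3 gave 4.53, 6.52 and 53.9 CPM. The 6 pericyte-associated genes summed to 72.8 CPM for the Input against 141, 393 and 182 CPM. The pericyte sum was therefore highest in IP 2 and the contractile sum in IP 3, where Myh11 alone supplied 35.6 CPM. With 1 library of each kind, no test of this difference between IP 2 and IP 3 was possible.

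Summed CPM of the 25 endothelial genes was 138 for the Input against 279, 759 and 357 for IP 1, 2 and 3, which is 2.02, 5.49 and 2.58 times the Input. Without Slc2a1 and Slc7a5, which other brain cells also make, the ratios were 1.82, 4.44 and 1.83 (this pair was chosen after the values were seen). The median log2 ratio to the Input over all 25 genes, with 0.5 CPM added, was 0.46 in IP 1, 2.15 in IP 2 and 0.92 in IP 3. For the 11 mural genes it was 0.20, 0.016 and 0.70, and with library totals alone the IP 2 value turned to -0.26. IP 2 was the highest IP library for 68% of the endothelial genes and for 33.2% of all tested genes, while IP 1 was the highest for 8% and 34.2%. This was not particular to endothelial genes. Of 10 markers each, IP 2 was highest for 7 astrocyte, 7 excitatory, 6 oligodendrocyte, 4 microglial and 1 GABAergic gene. It was highest for 6 of 12 fibroblast and 2 of 9 blood markers. Crh was highest in IP 1, where the endothelial sum was lowest of the 3, and a link between Crh and that sum was not tested.

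**Figure D3:**
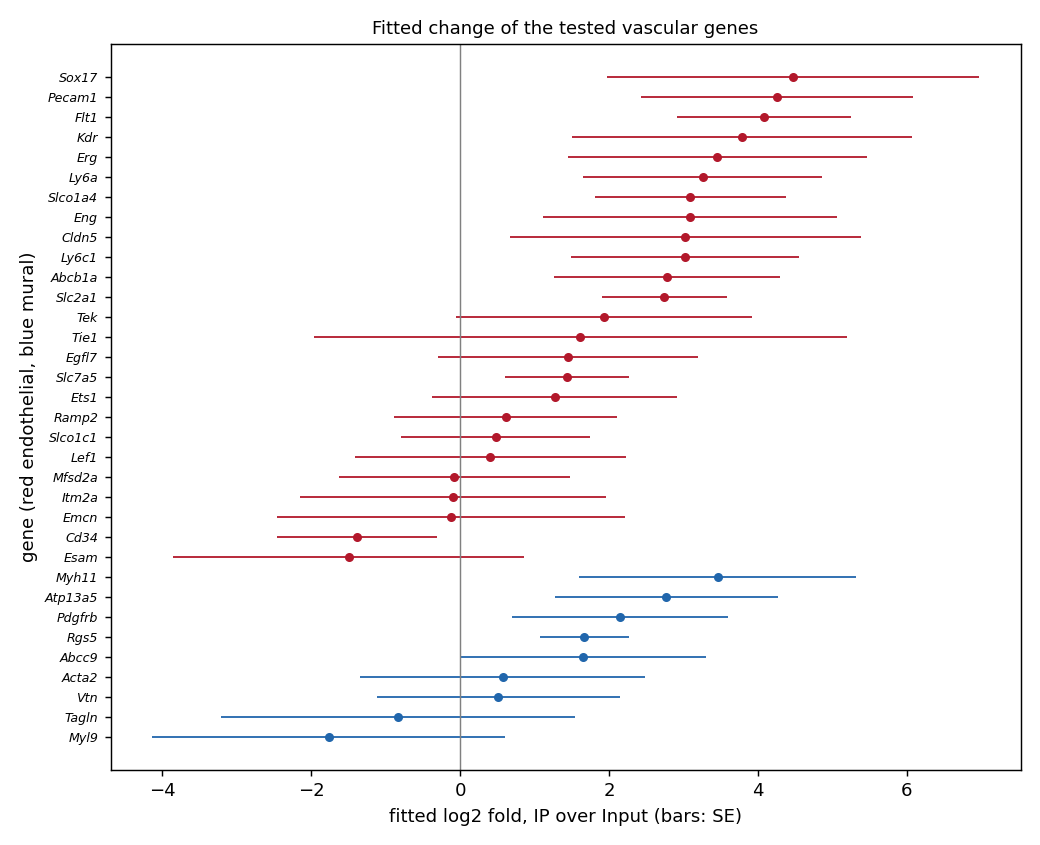
Fitted log2 fold of IP over Input for the 34 tested members, with bars of 1 SE, endothelial genes in red and mural genes in blue. The folds run from -1.76 for Myl9 to 4.47 for Sox17, and the narrowest bars belong to the abundant genes Rgs5 and Slc2a1.

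The spread among the IP libraries was large for both groups. The SD over IP libraries was 76.9% of the mean at the median endothelial gene and 105% at the median tested mural gene, beside 51.5% over all tested genes. Mean IP levels were also lower, with medians of 10.6 CPM for endothelial genes, 8.90 CPM for tested mural genes and 17.4 CPM for all tested genes, and the part of level in this spread was not tested. Vtn (25.5%) and Ramp2 (32.7%) varied least, and Sox17 (159%) most among the tested members.

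Scaled by exon length, the order of the members changed between Input and IP. In the Input the highest level per kilobase of exon was that of Rgs5 (12.8 CPM per kb), followed by Slc2a1 (6.52), Slc7a5 (5.51) and Cd34 (5.15). In IP the mean per kilobase was 43.7 ± 38.7 (SD, n = 3) for Slc2a1, 40.8 ± 21.0 for Rgs5, 14.9 ± 6.81 for Slc7a5 and 11.5 ± 7.19 for Ly6a. The first 2 of these did not differ beyond their spread, nor did the last 2. Cd34 went from rank 4 of 36 in the Input to rank 22 in IP, and Flt1 from rank 30 to rank 7, with 0.226 CPM per kb in the Input and 3.84 ± 2.95 in IP.

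Other vascular genes were also without a call by edgeR. Among all tested genes, 19.7% were above and 24.1% below the Input in all 3 IP libraries. At an unadjusted p under 0.05 by edgeR, 3.2% of all tested genes were higher in IP. Of 25 further endothelial genes 22 were tested, 0 were called and 1 was higher at an unadjusted p under 0.05, and 7 were above the Input in all 3 IP libraries and 3 below (median log2 fold 1.14). Ptprb, the endothelial phosphatase that restrains TIE2, had 6.60 CPM in the Input against 34.1, 118 and 34.6 CPM, and like Flt1 it was highest in IP 2. Podxl, the sialomucin podocalyxin, had 8.40 CPM against 9.81, 37.2 and 9.14 CPM. Of 19 further mural genes 17 were tested, 0 were called and 2 were higher at an unadjusted p under 0.05. In all 3 IP libraries 3 of the 17 tested were above and 4 below, near the shares over all tested genes. The median log2 fold was 0.73 over those tested. Tpm2, a tropomyosin of smooth muscle, had 6.24 CPM against 65.4, 69.4 and 31.6 CPM, and the actin regulator Cald1 27.8 CPM against 23.9, 54.9 and 22.1 CPM.

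Of the listed ligands, not all of them specific to receptors of vascular cells, edgeR called 0 of 15 tested. It had 0 at an unadjusted p under 0.05, and the median log2 fold was 0.29. Vegfa and Vegfb, which encode ligands of FLT1, had Input levels of 28.7 and 55.3 CPM, and IP ranges of 12.4 to 41.6 CPM for Vegfa and 50.6 to 64.4 CPM for Vegfb. Pdgfb, the ligand that recruits pericytes, had 12.2 CPM and a range of 6.81 to 29.8 CPM. Pdgfa had 34.3 CPM and a range of 47.2 to 68.6 CPM, above the Input in every IP library.

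Most astrocyte, oligodendrocyte and microglial markers were below the Input, where 19.7% of all tested genes were above and 24.1% below it in all 3 IP libraries. Of 10 astrocyte markers 0 were above and 9 below the Input in all 3 IP libraries, of 10 oligodendrocyte markers 1 above (Mag) and 7 below, and of 10 microglial markers 0 above and 9 below. The medians of their fitted log2 folds were -0.998, -1.18 and -2.32. Of 12 markers of meningeal and perivascular fibroblasts 1 was above (Pdgfra, also made by oligodendrocyte precursors) and 7 below. Of the 11 tested, 1 was above and 6 below, with a median of -1.04. Of the 5 blood markers tested, 1 was above and 3 below in all 3. Of all 9 blood markers 1, Alas2, was above and 6 were below in all 3. Of these 6, S100a9, Cd3e and Cd79a had 2, 1 and 4 counts in the Input and 0 in each IP library, which is not a detectable difference at this depth. The other 3 were globin genes, among them Hba-a2 (35.6 CPM in the Input, 6.29 to 9.41 CPM in IP) and Hbb-bs (19.7 CPM, 0.748 to 12.2 CPM). None of these 5 lists had a member called by edgeR. The count at an unadjusted p under 0.05 was 0 for astrocytes, 2 for oligodendrocytes, 2 for microglia, 1 for fibroblasts and 1 for blood. All of these were lower in IP, as were 1.23% of all tested genes at that threshold.

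**Figure D4:**
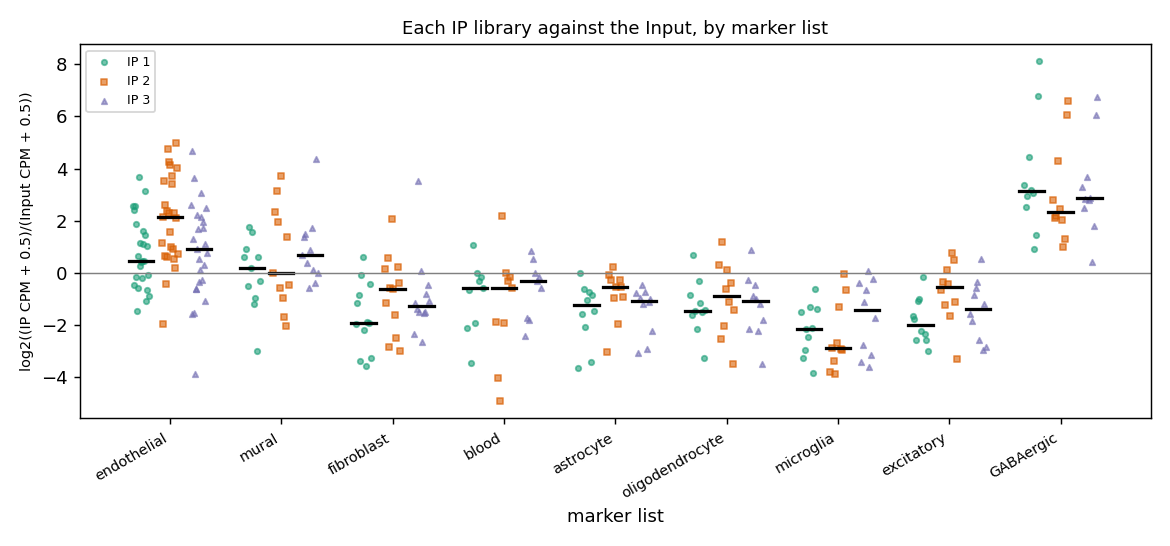
Log2 ratio of each IP library to the Input, with 0.5 CPM added, for each gene of the marker lists (points) and its median (black bars), for IP 1, IP 2 and IP 3 from left to right. The endothelial medians lie at 0.46, 2.15 and 0.92, while those of astrocyte, oligodendrocyte and microglial markers lie below 0 in every IP library.

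Summed CPM of the astrocyte list was 2711 for the Input against 1661, 2862 and 1825 for IP 1, 2 and 3, and that of the excitatory neuron list 5309 against 3289, 6298 and 5016. Both sums, like the endothelial one, were thus highest in IP 2 among the IP libraries. A single gene supplied most of each sum in IP 2, Slc1a2 with 2457 CPM and Camk2a with 4976 CPM. By gene, IP 2 was still the highest IP library for 7 of the 10 astrocyte and 7 of the 10 excitatory genes. The oligodendrocyte sum was 770 CPM for the Input against 348, 550 and 478 CPM, again highest in IP 2 among the IP libraries. The median log2 ratio of IP 2 to the Input was -0.55 for the astrocyte list and -0.53 for the excitatory list. Of the 10 excitatory genes, 7 were lower than the Input in each IP library, 0 were higher in each and 3 were mixed. EdgeR called 2 of them lower, Nrgn and Nrn1. Among the IP libraries the GABAergic sum was highest in IP 1 at 8089 CPM and lowest in IP 2 at 5303 CPM. The part of other cells' RNA in the endothelial level of IP 2 was not tested. Microglial markers summed to 95.8 CPM against 23.4, 24.0 and 37.1 CPM, with 1, 3 and 1 of the 10 at 0 counts in IP 1, 2 and 3.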

How the data were processed

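The deposited values are raw read counts, 1 table a library, with an Entrez identifier and a symbol per the file headers. The submitters' processing notes name STAR 2.0.0e, HTSeq without a version, and mm10. Annotation, strand and multiply mapped reads are not given in the sources used here. Rows with an identifier but no symbol (9) made up no more than 0.0221% of any library and were kept.

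Counts were fitted in R 4.3.3 with edgeR 4.0.16: filterByExpr (minimum count 10), TMM factors (1.15 for the Input, 0.932 to 0.974 for IP) and the two-sided quasi-likelihood F test, Benjamini-Hochberg over 14636 genes. The SE is the log2 fold over the root of F. The lone Input was assumed to vary like the 3 IP libraries (2 residual degrees of freedom, prior 17.0, biological coefficient of variation 0.787). No pair of libraries was a copy (chi-square per degree of freedom at least 84.7). Coordinates, exon lengths and overlaps are from GENCODE M21 (GRCm38, the assembly mm10 names), and promoters from RefSeq (GRCm38.p6), matched by symbol.

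All 36 members were to be named. Of each further list, the plan was to name at most its called genes and its 2 most abundant (4 for ligands), and not all of these are named. The limit was not kept throughout. Mag, Alas2, S100a9, Cd3e, Cd79a and the further genes under Other observations lie outside it and were picked with their values known. Members and lists were chosen with earlier results of these data known. Alternatives were other scalings, DESeq2 1.42.0, limma-voom (limma 3.58.1), other filters, a robust prior, a stricter threshold, and leaving out each IP library.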

Additional observations from a re-analysis of the deposited data

How the results depend on the processing

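The count of 67 genes called over all genes became 171 by DESeq2, 108 with every gene that had a count, 39 at an adjusted p under 0.01, and 90 to 210 when 1 IP library was left out (210 without IP 1, 105 without IP 2). The 0 endothelial calls became 2 by DESeq2, 2 with no low-count filter and 4 at an unadjusted p under 0.05, and 0 to 2 when 1 IP library was left out (2 without IP 1 and 2 without IP 3). The 0 mural calls became 1 at an unadjusted p under 0.05 and 0 to 1 when 1 IP library was left out (Rgs5, without IP 1). The median log2 fold of the mural genes, 1.66, was 0.60 by DESeq2, 0.58 with no low-count filter (both over 11 genes in place of 9), 0.98 with limma-voom, and 1.01 to 1.48 when 1 IP library was left out. That of the endothelial genes stayed above 0 under all alternatives, at 1.12 to 2.26 when 1 IP library was left out (1.12 without IP 2) and at 2.78 when a mean of 5 CPM was required, which left 18 of the 25 genes. Upper-quartile factors and library totals moved the median of all genes by -0.22 and -0.27, and split the calls 51 to 15 and 50 to 15. Counts of genes above the Input in all 3 IP libraries were 11 to 12 of 25 endothelial and 4 to 5 of 11 mural over the scalings. With 1 IP library left out, 12 to 17 endothelial and 5 to 6 mural genes were above in the other 2. That is an easier rule, for which the share of all genes was not counted. These alternatives were chosen after seeing the data.

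Of 363 refits of single members 347 kept direction and side of the threshold, 9 passed it (Flt1 and Slc2a1 4 times each, Rgs5 once) and 7 changed sign, each for a gene that was never called. Those were Acta2 by limma-voom (-0.43), Lef1 by limma-voom (-0.060) and genes refitted with 1 IP library left out: Acta2 (-1.33 to 1.02, lowest without IP 3), Emcn (-0.89 to 0.35, highest without IP 3), Itm2a (-0.72 to 0.14, above 0 without IP 1, at 0.12, and without IP 3) and Mfsd2a (-0.35 to 0.25, highest without IP 1). The cause was not tested. No paired analysis was possible because the Input is a single library and the labels do not tie it to an IP. Depth limits Higd1b, Cnn1 and Tie1, with at most 16 counts in a library. The single Input sets every ratio, and genes with fewer than 10 counts there, such as Cldn5, Kdr and Sox17, have wide counting intervals.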

Other observations

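Several vascular genes outside the members, chosen after their values were seen, had most of their IP counts in a single library. Bmx, a tyrosine kinase of arterial endothelium, had 5 counts in the Input and 5, 463 and 0 counts in IP 1, 2 and 3. Art3, an ADP-ribosyltransferase family gene of pericytes, had 12 counts in the Input and 0, 633 and 3 in IP. Vwf, the clotting protein of large vessels, had 4 counts in the Input and 4, 57 and 3 in IP. In IP 3, Dll4, a Notch ligand of arterial endothelium, had 122 counts, beside 4 in IP 1, 0 in IP 2 and 1 in the Input. The Notch receptor gene Notch3 of mural cells had 297 counts in IP 3, 20 and 40 in IP 1 and 2, and 31 in the Input. The collagen gene Col1a2 of fibroblasts had 677 counts in IP 3, 0 and 2 in IP 1 and 2, and 77 in the Input.

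Such genes did not all share a library with other genes of their cell type. Cdh5, the endothelial cadherin, stood at 7.67, 5.24 and 25.004 CPM in IP 1, 2 and 3, highest in IP 3 with Pecam1, while Kdr, Eng, Erg and Sox17 were highest in IP 2. Gja4, a connexin of arterial vessels, had 12 counts in the Input and 0 in each IP library.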
